A study of Mus musculus with 6 samples.

Results

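The AP-1 transcription factor genes were examined in RNA-seq of RPE-choroid, the retinal pigment epithelium with the vascular layer beneath it, from mice with and without subretinal fibrosis. The 10 genes were chosen by symbol as members or partners of the family (Fos, Fosb, Fosl1, Fosl2, Jun, Junb, Jund, Atf3, Batf3 and Maff), and all 10 were among the 15663 genes listed. Of these, 7 passed the filter on low counts, which 13454 genes passed in all. The 3 control mice were untreated, and the 3 subretinal fibrosis mice had received a two-stage laser treatment, in which 4 burns were made around the optic nerve head of each eye and every lesion was burned again 10 days later. RPE-choroid was collected when 20 days had passed since the second laser. Per the study's methods the mice were C57BL/6J males aged 8 to 10 weeks, and all 6 libraries share that background. The model is an injury model, and whole RPE-choroid was sequenced, so fewer cells of a type and less RNA per cell cannot be told apart.

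AP-1 is a dimer of basic leucine zipper proteins. Fos proteins need a Jun partner to bind DNA, whereas Jun proteins also pair with each other, and the dimers bind the TRE motif TGACTCA or the related CRE motif TGACGTCA. Fos, Fosb, Jun, Junb and Atf3 are immediate early genes, which are transcribed within minutes of growth factor, stress or injury signals and decay fast, while Jund is expressed more steadily in many tissues and often opposes the growth-promoting action of Jun.

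The libraries held 13667310 to 24356023 counts. Genes of the RPE were at a mean of 9.77 to 10.22 log2 CPM, so the labelled tissue was present in all 6 libraries. Control mouse 1 and fibrosis mouse 3 stood apart, with photoreceptor genes at a mean of 8.01 and 8.03 log2 CPM against 4.03 to 5.25 in the other 4 libraries. The mean over 15 macrophage genes was higher in every fibrosis mouse, at 6.77 to 7.13 against 5.99 to 6.31 log2 CPM. Of the 15, 14 had a higher fitted level, 10 of them without overlap of the groups. Over all tested genes, 6.71% were higher in fibrosis without overlap. The mean over 16 RPE genes was lower, at 9.77 to 9.96 against 10.09 to 10.22 log2 CPM. Of the 16, 12 were lower by fitted level and 7 without overlap, beside 6.43% of all tested genes lower without overlap. The part of these shifts in the AP-1 values was not tested.

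Among the Jun genes, Jund (ENSMUSG00000071076, chr8:70698949-70700616 on the plus strand of GRCm38, a single exon) was the one member whose transcript was higher in every fibrosis mouse than in every control. Its level, in TMM-normalized CPM (counts scaled to a common library size), was 22.6, 28.2 and 22.3 in the control mice and 93.6, 81 and 51.1 in the fibrosis mice. The groups did not overlap, and the lowest fibrosis value belonged to mouse 3. The means were 24.4 ± 3.3 and 75.3 ± 21.8 CPM (SD, n = 3 each), and the fitted log2 fold change was 1.63 with a standard error of 0.24. The edgeR quasi-likelihood test gave a Benjamini-Hochberg adjusted p of 0.198, so Jund was not called, although its rank by p was 16 of 13454 genes. By DESeq2, with Benjamini-Hochberg adjustment, it was called at an adjusted p of 2.8e-07. Jund is on a list the study drew from these same samples, so its call is not independent evidence. The study also measured Jund by qRT-PCR in RPE-choroid, and the outcome is not reported here. The Jund values given here rest on RNA-seq of these libraries alone. The same Jund values enter the shares and ratios given below. Without control mouse 1 and fibrosis mouse 3, a choice made after the data were seen, the log2 fold change was 1.79 and edgeR's Benjamini-Hochberg adjusted p was 0.0031.

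Jun and Junb, the inducible Jun genes, did not follow Jund. Jun (chr4:95049034-95052222, minus strand), which encodes the growth-promoting partner of Fos, was at 46.2, 80.9 and 65.8 CPM in control mice and 51, 66.2 and 39.9 CPM in fibrosis mice. Junb (chr8:84974484-84978718, minus strand), often an antagonist of Jun, was at 43.3, 87.2 and 64.9 against 47.9, 62.9 and 57.2 CPM. For both genes the fibrosis values lay largely within the range of the controls. Their log2 fold changes were -0.30 (SE 0.26) and -0.22 (SE 0.25), with edgeR Benjamini-Hochberg adjusted p-values of 0.95 and 0.99. The direction for Junb rested on control mouse 2, without which its log2 fold change was 0.05. Junb overlaps Prdx2 on the opposite strand, at 350, 375 and 339 against 346, 316 and 287 CPM, and the strandedness of the libraries is not given in the sources used here.

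**Figure D1:**
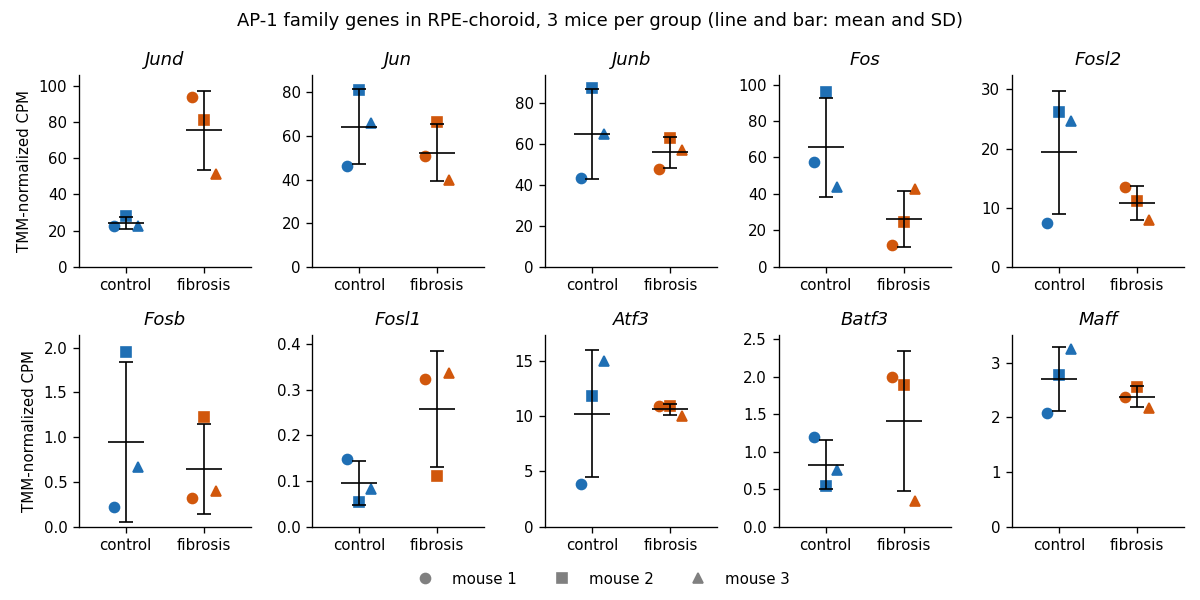
TMM-normalized CPM of the 10 AP-1 genes in each mouse, on a linear scale from 0 set separately for each gene, with the group mean and SD. Jund is the gene with all fibrosis mice (51.1 to 93.6 CPM) above all control mice (22.3 to 28.2 CPM).

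Because counts depend on transcript length, levels of different genes were compared in FPKM. In every control mouse Jund was number 4 in order of level among the 10 members, at 13.33, 16.47 and 13.14 FPKM. In the fibrosis mice it was at 56.79, 49.73 and 30.89 FPKM, first in mice 1 and 2 and second in mouse 3, where Junb was at 31.85 FPKM. Jund made up 26.1, 18.7 and 19.1% of the summed FPKM of Jun, Junb and Jund in the controls, and 56.9, 46.7 and 41.0% in fibrosis. The shares did not overlap, with means of 21.3 ± 4.16% and 48.2 ± 8.08% (SD, n = 3 each, exact permutation p = 0.1, two-sided, the smallest this design allows). The sum itself was 51.1, 88.3 and 68.7 FPKM in controls and 99.7, 106.5 and 75.3 FPKM in fibrosis, and these ranges overlapped (exact permutation p = 0.2, two-sided, n = 3 each).

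**Figure D2:**
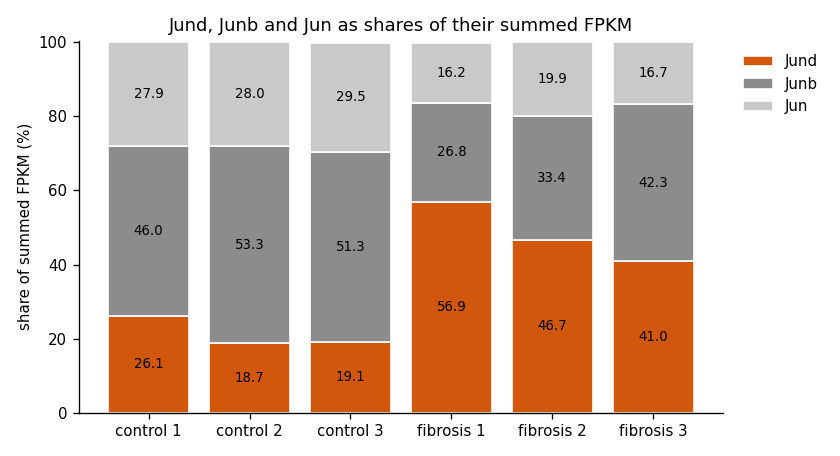
Share of Jund, Junb and Jun in their summed FPKM for each library, in percent. Jund takes 18.7 to 26.1% in control mice and 41.0 to 56.9% in fibrosis mice.

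Of the Fos genes, Fos (ENSMUSG00000021250, chr12:85473890-85477273, plus strand), the prototype immediate early gene, was the most abundant, at 69.9 to 95.5% of the summed FPKM of its family. It was at 57.5, 96.1 and 43.5 CPM in control mice and at 12.2, 24.5 and 42.5 CPM in fibrosis mice. The CPM groups were separated only by the small gap between control mouse 3 and fibrosis mouse 3, and in FPKM they overlapped, at 20.31 and 20.32. The log2 fold change was -1.32 (SE 0.48), with a Benjamini-Hochberg adjusted p of 0.604 by edgeR and 0.114 by DESeq2. DESeq2, with Benjamini-Hochberg adjustment, called Fos lower in 3 alternatives. The adjusted p was 0.00115 without fibrosis mouse 3, 0.00685 with the photoreceptor level as a covariate and 0.0367 with the replicate block. The last 2 were chosen after the data were seen. These settings called 361, 258 and 201 genes in all. DESeq2 did not call Fos with any other single mouse left out, such as fibrosis mouse 1 (adjusted p 0.397) or fibrosis mouse 2 (0.83). It also did not call Fos with GC correction (0.11) or without both control mouse 1 and fibrosis mouse 3 (0.114). Fosl2 (chr5:32135801-32157842, plus strand), which encodes Fra-2, was at 7.37, 26.1 and 24.7 CPM in controls and 13.5, 11.1 and 7.84 CPM in fibrosis. Its groups overlapped because of the low control mouse 1, and its log2 fold change of -0.85 (SE 0.47) had an edgeR Benjamini-Hochberg adjusted p of 0.829. Without control mouse 1 and fibrosis mouse 3, a choice made after the data were seen, Fosl2 was called lower by edgeR at a log2 fold change of -1.05, with a Benjamini-Hochberg adjusted p of 0.0335.

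The other Fos genes were too low to be tested. Fosb, which encodes a close relative of Fos, had 3, 36 and 16 counts in the controls, and the fibrosis mice had 6, 22 and 7. Fosl1, which encodes Fra-1, had 2, 1 and 2 against 6, 2 and 6 counts. At this depth 3 counts correspond to 0.123 to 0.22 CPM, so no difference in Fosl1 could be read. The summed FPKM of the Fos genes was 28.1, 48.9 and 24.3 in controls and 8.4, 14.0 and 21.8 in fibrosis, with no overlap (exact permutation p = 0.1, two-sided, n = 3 each).

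Among the partners, Atf3, a stress-induced factor that pairs with Jun proteins, was at 3.87, 11.8 and 15 CPM in control mice and 10.9, 10.9 and 10 CPM in fibrosis mice. The controls spanned the fibrosis values, and the log2 fold change of 0.04 (SE 0.44) turned to -0.34 without control mouse 1. Maff, a small Maf protein without an activation domain, was at 2.08, 2.77 and 3.25 against 2.38, 2.56 and 2.18 CPM, with a log2 fold change of -0.19 (SE 0.33). Batf3, known for its need in a class of dendritic cells, had 16, 10 and 18 counts in controls and 37, 34 and 6 in fibrosis. It was not tested, and fibrosis mouse 3 held the lowest of its 6 values.

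Across the family, 5 of the 7 tested members had a lower and 2 a higher fitted level in fibrosis. None was called by edgeR, which called 0 of 13454 genes (0%), and 1 member, Jund, was called by DESeq2, which called 153 genes (1.14%). At an unadjusted edgeR p under 0.05 stood 2 members, Jund and Fos, beside 943 genes in all (7.01%). The groups did not overlap for 1 member in the upward direction, against 6.71% of all tested genes, and for 1 in the downward direction, against 6.43%. The median log2 fold change was -0.22 over the 7 tested members and 0.00 over all tested genes. The summed FPKM of the 10 members was 83.6, 145.1 and 103.0 in controls and 117.5, 130.0 and 103.8 in fibrosis, which overlapped (exact permutation p = 0.8, two-sided, n = 3 each).

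**Figure D3:**
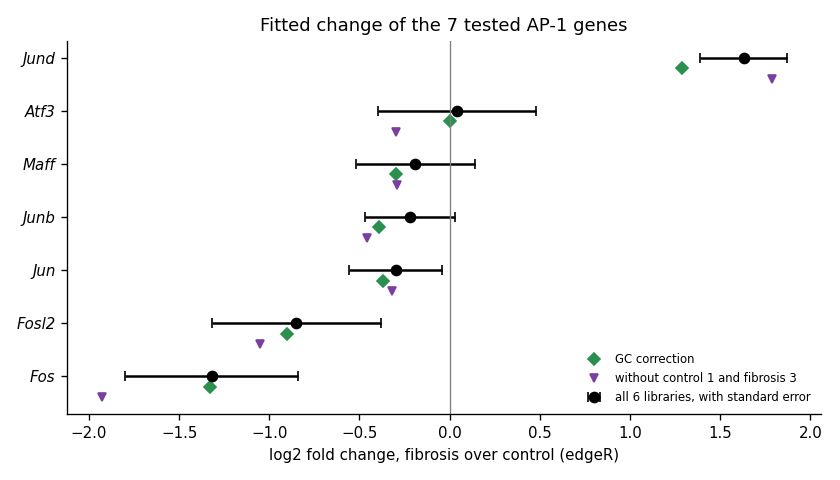
Log2 fold change of fibrosis over control for the 7 tested members, with the standard error for the fit on all 6 libraries, and the values after GC correction and without control mouse 1 and fibrosis mouse 3. Jund stays between 1.29 and 1.79, and the value for Atf3 lies at or below 0 in both alternatives.

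Some of the inducible members were highest or lowest in the same control library. Control mouse 2 held the highest of the 6 values for 5 of the 10 members (Fos, Fosb, Fosl2, Jun and Junb), and control mouse 1, which stood apart in its photoreceptor genes, held the lowest for 5 (Fosb, Fosl2, Junb, Atf3 and Maff). Both held for 3, Fosb, Fosl2 and Junb. Among the 7 tested members the counts were 4 and 4, where 10.6% of all tested genes were highest in control mouse 2 and 19.9% lowest in control mouse 1. Fosl1 was lowest in control mouse 2, and Jund was in neither group. Control mouse 1 was also lowest in genes of the ocular surface epithelium, at a mean of 4.29 log2 CPM against 5.49 to 7.41 in the other libraries. All 7 of these genes had a lower fitted level in fibrosis, beside 49.7% of all tested genes. The part of this tissue in the AP-1 values was not tested.

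The contrast of Jund with the inducible members was taken within each library as a log2 ratio of CPM. Jund to Jun was -1.03, -1.52 and -1.56 in control mice and 0.88, 0.29 and 0.36 in fibrosis mice, so Jund lay below Jun in every control and above it in every fibrosis mouse. Jund to Junb was -0.94, -1.63 and -1.54 against 0.97, 0.37 and -0.16, and Jund to Fos was -1.35, -1.77 and -0.97 against 2.94, 1.73 and 0.27. In each case the fibrosis mice lay above the control mice without overlap. The mean differences were 1.88 for Jun, 1.76 for Junb, 3.01 for Fos, 2.26 for Fosl2 and 1.76 for Maff, each with an exact permutation p of 0.1 (two-sided, n = 3 each), the smallest possible. Over these 6 pairs no adjusted value can reach the threshold. The ratio to Atf3 overlapped between groups, with a difference of 1.33 and an exact permutation p of 0.2 (n = 3 each).

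**Figure D4:**
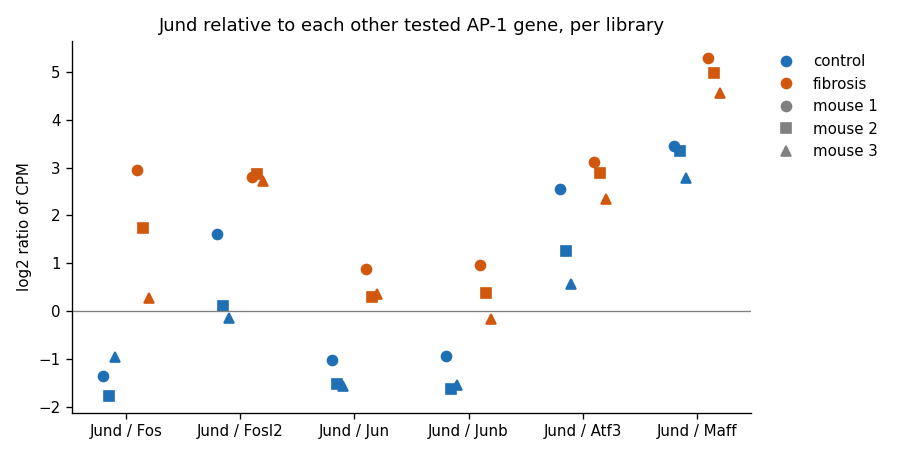
Log2 ratio of the CPM of Jund to that of each other tested member in each library. Control and fibrosis mice are separate for every pair but Jund to Atf3, where control mouse 1 at 2.55 lies above fibrosis mouse 3 at 2.35.

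GC content moved with the fold changes over all genes, and Jund has one of the most GC-rich transcripts measured. The GC content of its longest transcript is 67.1%, against 62.6% for Junb, 55.5% for Jun and 51.9% for Fos. The GC-richest 200 bases of the coding sequence are shown for the 3 single-exon Jun genes, to show how the genes differ in base composition. Capitals mark runs of at least 8 G or C. The sequences are from GENCODE M21 on GRCm38, written 5′ to 3′ on the coding strand, for Jund at chr8:70699520-70699719 (plus), Junb at chr8:84977898-84978097 (minus) and Jun at chr4:95050542-95050741 (minus).
Jund: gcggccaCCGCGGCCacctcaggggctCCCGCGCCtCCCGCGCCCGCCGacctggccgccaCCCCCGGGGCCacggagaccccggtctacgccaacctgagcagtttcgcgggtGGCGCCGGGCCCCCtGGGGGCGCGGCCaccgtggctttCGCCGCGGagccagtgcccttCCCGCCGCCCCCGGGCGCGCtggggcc
Junb: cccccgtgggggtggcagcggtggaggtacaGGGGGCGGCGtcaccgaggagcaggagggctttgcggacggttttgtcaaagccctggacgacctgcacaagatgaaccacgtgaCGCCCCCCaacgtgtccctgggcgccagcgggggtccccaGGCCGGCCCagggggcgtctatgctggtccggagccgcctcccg
Jun: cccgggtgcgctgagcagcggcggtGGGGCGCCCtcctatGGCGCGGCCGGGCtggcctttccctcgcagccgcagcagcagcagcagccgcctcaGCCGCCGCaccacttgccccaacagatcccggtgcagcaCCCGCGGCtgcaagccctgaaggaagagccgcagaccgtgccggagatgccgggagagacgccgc
The Jund stretch is 82.0% G and C and holds 8 such runs, the longest of 20 bases, whereas Junb at 71.5% holds 3 and Jun at 74.0% holds 4.

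The median log2 fold change was -0.08 over the 3487 tested genes under 45% GC, 0.03 between 50 and 55%, 0.15 over the 498 genes from 60 to 65% and 0.47 over the 35 genes at 65% or more, of which 97.1% had a higher fitted level in fibrosis. Jund, at 1.63, lay above that trend. Of 31 genes within 2 percentage points of its GC content, 1 had a fold change as large. Over all 13454 tested genes, 15 did, Jund included, so such a fold change was more frequent near its GC content. Junb, in the bin from 60 to 65%, had a log2 fold change of -0.22 where the bin's median was 0.15. By library, the 34 other genes at 65% GC or more had median deviations from the mean of -0.16, -0.04 and -0.33 log2 in controls and 0.56, 0.32 and -0.18 in fibrosis, and Jund had -0.89, -0.58 and -0.91 against 1.15, 0.94 and 0.28. Fibrosis mouse 3 was the lowest of the fibrosis mice in both. After a correction for GC content within each library the log2 fold change of Jund was 1.29, with a Benjamini-Hochberg adjusted p of 0.119 by edgeR and 1.1e-13 by DESeq2. The correction was incomplete where Jund lies. The median over the 35 genes at 65% or more was still 0.15 after it, against -0.02 over the genes from 60 to 65%.

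**Figure D5:**
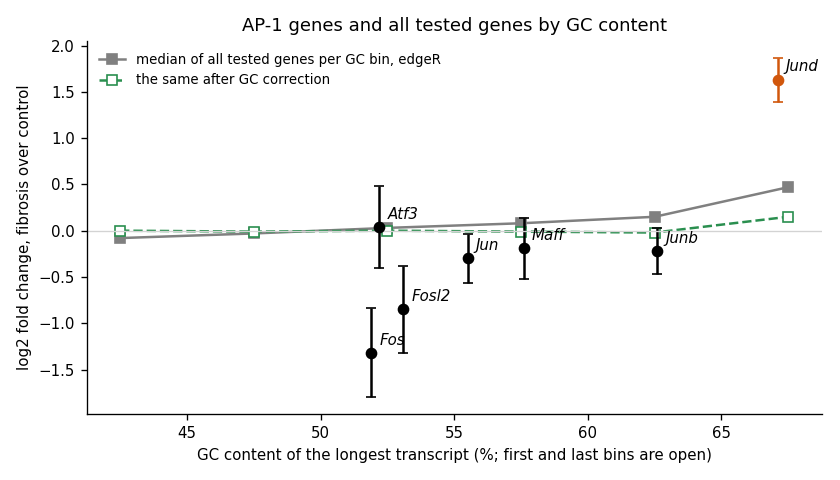
Log2 fold change of the 7 tested members, with standard errors, against the GC content of their longest transcript, with the median of all tested genes per GC bin before and after GC correction. The bin medians go from -0.08 to 0.47 before correction, and Jund at 67.1% GC lies above them at 1.63.

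Promoter windows, 250 bases before the RefSeq start on GRCm38.p6, were found for 9 of the 10 members, all but Fosl1. Those of Fos and Jun are shown because they carry the response elements these genes are known for. Capitals mark TGACG, TGACATCA or TATAAA. The windows are Fos at chr12:85473640-85473889 (plus strand) and Jun at chr4:95052223-95052472 (minus strand).
Fos: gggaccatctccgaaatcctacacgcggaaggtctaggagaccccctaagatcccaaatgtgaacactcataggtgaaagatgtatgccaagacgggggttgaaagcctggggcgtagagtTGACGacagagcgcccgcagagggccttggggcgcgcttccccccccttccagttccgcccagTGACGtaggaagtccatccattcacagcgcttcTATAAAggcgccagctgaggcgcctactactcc
Jun: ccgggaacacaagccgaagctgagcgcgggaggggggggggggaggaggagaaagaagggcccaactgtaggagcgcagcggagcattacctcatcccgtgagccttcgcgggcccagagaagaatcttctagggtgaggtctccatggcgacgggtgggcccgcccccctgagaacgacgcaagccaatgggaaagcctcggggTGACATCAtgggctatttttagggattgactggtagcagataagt
The Fos window holds TGACG, the first bases of the CRE, at -129 and -66 from the start and TATAAA at -33, and the Jun window holds TGACATCA at -45. In 32851 windows of all genes, searched on both strands, TGACG occurs in 17.8% and TGACATCA in 2.93%, and TATAAA, on the printed strand alone, in 7.59%. The full TRE, TGACTCA, was in 4.46% of all windows, and TGACGTCA, which contains TGACG, in 1.55%. TGACG also stands in the windows of Junb at -106, Fosb at -60 and Atf3 at -7. Maff has several RefSeq starts, and one of its windows holds the full TGACGTCA at -29 and another TGACATCA at -45. For Jund none of these letters is in the window, which lies before a RefSeq start 1210 bases upstream of the GENCODE start.

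Other genes of the pathway were taken from lists. Of 15 tested bZIP partners outside the family, 7 were higher and 8 lower by fitted level, with a median log2 fold change of -0.01, and none was called by edgeR or DESeq2. Of 19 upstream kinases and factors, 9 were higher and 10 lower, with log2 fold changes from -0.28 to 0.34. None of the 19 was called by either tool or was at an unadjusted edgeR p under 0.05. Over all tested genes, DESeq2 called 1.14%, and 7.01% were at that edgeR p.

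Of 24 other tested early response genes, 19 were lower by fitted level, with a median log2 fold change of -0.32 beside 0.00 over all tested genes, and 4 fell by DESeq2, Nr4a1, Egr3, Arc and Sik1. None was called by edgeR, by which 7 were lower and 2 higher at an unadjusted p under 0.05. Over all 13454 tested genes, DESeq2 called 45 lower and 108 higher, and by edgeR 383 were lower and 560 higher at that p. Nr4a1, an orphan nuclear receptor, was at 78.8, 364 and 290 CPM in control mice and 27.8, 23.4 and 48.8 CPM in fibrosis mice, and every fibrosis value was under every control value (log2 fold change -2.87, SE 0.58). Of 11 tested feedback inhibitors of MAP kinase signalling, 8 were lower and 3 fell by DESeq2, Spry2, Dusp6 and Dusp4. None was called by edgeR. Spry2 was at 106, 159 and 135 CPM in controls and 72.6, 69.3 and 74.7 CPM in fibrosis, with a log2 fold change of -0.88 (SE 0.16).

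Of 15 tested genes known as AP-1 targets, 11 were higher and 4 lower by fitted level, with a median log2 fold change of 0.51. By DESeq2 3 rose, Mmp12, Mmp14 and Spp1, and none was called by edgeR, by which 5 were at an unadjusted p under 0.05, all higher. Over all 13454 tested genes, DESeq2 called 108 higher, and by edgeR 560 were higher at that p. Mmp12, macrophage elastase, was at 13.3, 19.3 and 20.1 CPM in controls and 92.7, 86 and 98.5 CPM in fibrosis, without overlap. Its log2 fold change was 2.39 (SE 0.18), with an edgeR Benjamini-Hochberg adjusted p of 0.0504. Several of these genes are on a list the study drew from these same samples, so their directions are not independent evidence, and the part of the higher macrophage genes in them was not tested.

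The genes whose log2 CPM followed Jund most closely over the 6 libraries were Bbc3, Il17ra, Gas2l1, Cd300a and Fcer1g, with Pearson's r from 0.996 down to 0.985. Fcer1g and Cd300a are expressed by myeloid cells, and Spi1, a myeloid transcription factor, had r = 0.984. The other genes among the first 10 were Shroom1 and Atp9a, also at 0.984, and Bcl2a1b and Il4ra, at 0.983. Those following Fos most closely were Mrps22 and Prkaa2, at 0.992 and 0.986, with log2 fold changes of only -0.25 and -0.18. Egr1, an early response gene at 127, 211 and 168 against 57.4, 89.4 and 118 CPM, had r = 0.946 with Fos and was singled out after its values were seen. These correlations are descriptions over 6 libraries that share the group difference.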

How the data were processed

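Per the study's methods, RPE-choroid RNA from 3 control and 3 subretinal fibrosis mice was sequenced. Groups and replicate numbers were taken from the labels, and the replicate numbers are used here as mouse numbers. The authors filtered reads with FASTP and used StringTie for quantification. The aligner, genome build and strandedness are not given in the sources used here. The authors deposited raw counts per gene, without normalization, and FPKM values, scaled by transcript length and library size. The labels give replicate numbers and do not give cages or extraction days, so p-values measure only the spread between these samples.

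Testing was limited to genes above 50 counts in 2 or more samples and used edgeR 4.0.16 (TMM, quasi-likelihood F-test, group as the only term) in R 4.3.3, with Benjamini-Hochberg adjustment over all tested genes. Calls required adjusted p < 0.05 together with an absolute log2 fold change of 0.5 or more. DESeq2 1.42.0 and limma 3.58.1 were alternatives. Gene models, GC content and coordinates were those of GRCm38 (GENCODE M21), which holds 15659 of the 15663 identifiers listed. The limit of 3 counts covers counting error only. Single values were compared by an exact permutation test, two-sided, whose smallest p is 0.1 with 3 mice against 3. The GC correction subtracted, library by library, a lowess curve fitted against GC content. The scripts were tested on simulated data.

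Named genes were the 10 members, up to 4 genes of each related list with the smallest unadjusted p plus any called by edgeR or DESeq2, and the 10 genes with the highest Pearson correlation of log2 CPM with Jund and with Fos. From these the text gives the leading ones. The members and lists were chosen with earlier results of these data known. Photoreceptor level, GC content, normalization, filters, the replicate block and leaving out libraries were varied. The values of 1 gene that the naming rule covers are left out of the text.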

Additional observations from a re-analysis of the deposited data

How the results depend on the processing

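Main calls were 0 genes and 0 members. One gene was called with limma-voom and with 6 edgeR alternatives (legacy = FALSE, upper quartile, library totals, no filter, filterByExpr, photoreceptor covariate), each giving 1. DESeq2 called 153 genes and 1 member. Leaving out each replicate gave 0 to 5 genes by edgeR and 67 to 361 genes (237, 91 and 182 without control 1, 2 and 3) and 1 to 2 members by DESeq2, where the second member was Fosl2 without control mouse 1 and Fos without fibrosis mouse 3. The following were chosen after seeing the data. Without control mouse 1 and fibrosis mouse 3, edgeR called 154 and DESeq2 514 genes, each with 2 members. DESeq2 called 166 genes and 1 member with GC correction and 258 genes and 2 members (Jund and Fos) with the photoreceptor covariate.

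The log2 fold change of Jund was 1.62 by DESeq2, 1.44 to 1.84 leaving out each replicate by either tool (by DESeq2 1.74 without control 2, and 1.57 without control 1, control 3 or fibrosis 2), 1.79 without both libraries by either tool, 1.29 with GC correction and 1.55 with the photoreceptor covariate by DESeq2. It was positive in all 31 alternatives. Junb reversed without control mouse 2 (0.05 by edgeR, 0.04 by DESeq2), and Atf3 without control mouse 1 (-0.34 and -0.35) and without both libraries (-0.30 and -0.31). The cause was not tested.

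With the replicate block, edgeR called 0 genes and gave Jund 1.59 (Benjamini-Hochberg adjusted p 0.345), and DESeq2, a choice made after seeing the data, called 201 genes and 2 members (Jund and Fos) and gave Jund 1.58. Correlations of same-numbered mice were -0.479, 0.486 and -0.3, and those of differently numbered mice ranged from -0.699 to 0.618. With so few mice, 2 of them apart in photoreceptor genes, these values cannot decide whether the numbers pair the mice. Depth limits Fosb, Fosl1 and Batf3, which could not be tested.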
